A study of Rattus norvegicus with 6 samples.

Results

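Thyroid hormone acts on the pituitary through a small set of genes, and 8 of them were examined here among the 33294 gene symbols of the count files: the receptor genes Thra and Thrb, the receptor partner Rxrg, the corepressor gene Hr, the deiodinase genes Dio1, Dio2 and Dio3, and the transporter gene Slco1c1. They were taken by symbol, and each had 1 row in every library. Of the 8 genes, 7 passed the filter on low counts and Dio3 did not. RNA was sequenced from the pituitary glands of 3 male Sprague-Dawley rats whose dams had received a subcutaneous osmotic pump with nicotine tartrate during gestation (6 mg/kg per day), and of 3 male rats whose dams had received a pump with saline. All 6 rats were 11 weeks old, and the first 3 were exposed through the dam. Litters were not given in the labels, so p-values rest on the spread between these 6 rats, which may share a dam. The labels name the pituitary gland and no lobe, and its hormone genes were present in every library, Gh1 at 52411 to 115750 CPM, which are counts scaled to library size with trimmed mean of M-values (TMM) factors. This checks the tissue label, since the extraction text among the labels speaks of testis.

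The libraries held 28318383 to 85977002 counts, and the median total of the nicotine group was 1.70 times that of the control group. Nicotine replicate 2 stood apart, at a mean distance of 90.8 from the other libraries against 72.0 to 80.7 for the rest. It was the highest library for 4 of the 8 genes, and control replicate 3 was the lowest for 3. A list of read numbers in the study's supplement ran the other way from the deposited totals, with the larger numbers in the control group, and its entries match those totals in order only if the groups are exchanged. Groups follow the GEO labels, and every direction below rests on them.

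In the pituitary, thyroid hormone enters cells through membrane transporters, is activated by the type 2 deiodinase or inactivated by the type 3 deiodinase, and binds nuclear receptors that act on DNA together with a retinoid X receptor. Thyrotrophs, the cells that make thyroid stimulating hormone, sense the hormone in this way and lower their output when it is abundant, mainly through the beta receptor. Somatotrophs also respond, and growth hormone is a classic target of the receptors in the rat.

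No gene among the 8 was called different between the groups. A call needed a fold change above 1.5 together with an adjusted p below 0.1 in edgeR's quasi-likelihood test, fitted over 17292 genes, and this called 0% of all genes tested. At an unadjusted p under 0.05, 1 of the 7 tested genes passed, Slco1c1, on the higher side after nicotine, beside 6.14% of all genes tested (3.13% higher and 3.01% lower). DESeq2, which called 0.339% of the genes for which it gave an adjusted p, and limma voom also called 0 of the 8. Each gave 1 unadjusted p under 0.05 among them, beside 1154 of 24546 genes in DESeq2 and 1178 of 17292 in voom. The nicotine and control libraries did not overlap for 3 of the 7, Thra and Slco1c1 on the higher side after nicotine and Dio1 on the lower side, beside 11.3% of all genes tested (6.12% higher and 5.14% lower). Over the 7 genes the median log2 fold change was 0.17, and over all genes tested it was 0.007. In whole tissue, fewer cells of a type and less RNA per cell cannot be told apart.

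**Figure D1:**
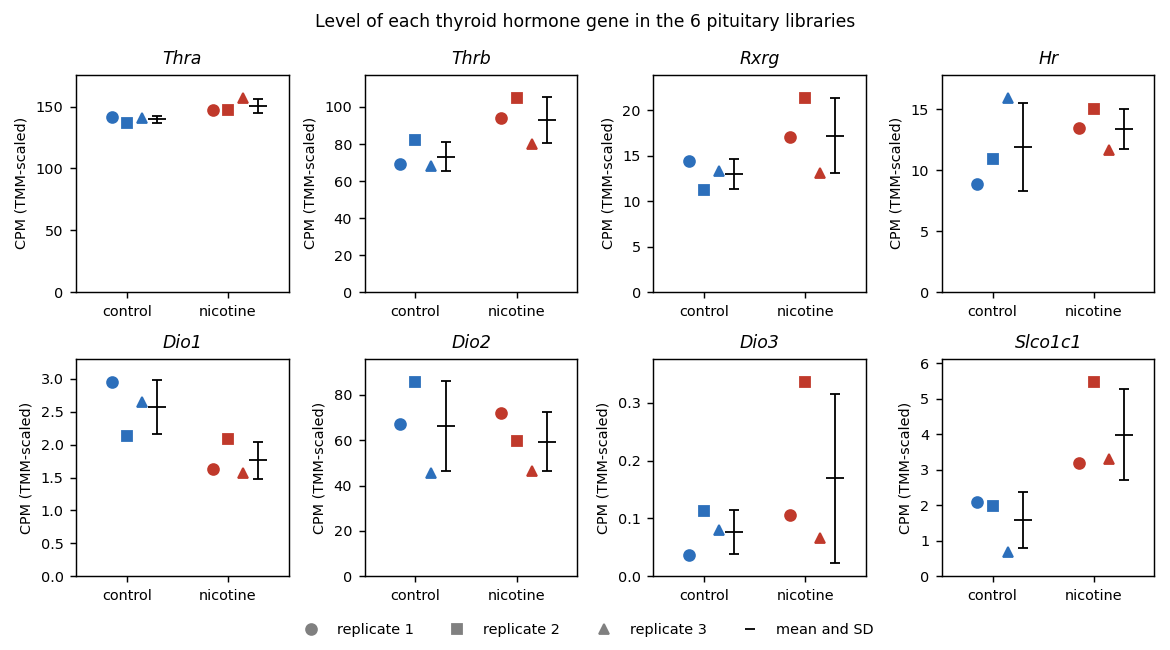
Level of each gene in CPM (y axis, from 0, TMM-scaled) in the 3 control libraries (blue) and the 3 nicotine libraries (red), with marker shape for the replicate number and black bars for the mean and SD. Slco1c1 lay at 0.687 to 2.104 CPM in controls and 3.20 to 5.48 CPM after nicotine without overlap, while the groups of Dio2 and Hr overlapped widely.

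Thra encodes the alpha receptor and, through alternative splicing, a variant that does not bind the hormone. Its level was 147, 148 and 157 CPM in nicotine replicates 1, 2 and 3 and 141, 136 and 141 CPM in control replicates 1, 2 and 3. Every nicotine library lay above every control library, by a narrow margin. The group means were 151 ± 5.59 CPM and 140 ± 2.76 CPM (SD, n = 3 each), which puts the log2 fold change at 0.11 (standard error, SE, 0.14, 95% interval -0.20 to 0.42, edgeR adjusted p = 0.893). The exact two-sided permutation test gave p = 0.1, the smallest that 3 libraries against 3 allow.

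Thra was also among the steadiest genes of its abundance. Its spread within groups was 0.0426 on the log2 scale, where the median of 873 genes within 0.5 log2 units of its level was 0.204. Only 0.229% of those genes had a smaller spread. The SE of 0.14 from edgeR also draws on the spread of other genes, and is not that of Thra alone.

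Thrb encodes the beta receptor, including the isoform known for feedback on thyroid stimulating hormone. It was at 93.9, 105 and 79.8 CPM after nicotine and at 69.2, 82.0 and 67.9 CPM in controls. Nicotine replicate 3 fell just below control replicate 2, and the other nicotine libraries were above all controls. The means were 92.9 ± 12.6 CPM and 73.1 ± 7.81 CPM (SD, n = 3 each). The fitted log2 fold change of 0.35 (SE 0.16) had a 95% interval of -0.01 to 0.70 and did not pass (unadjusted p = 0.0571, edgeR adjusted p = 0.808). With 1 library left out it ranged from 0.24, without nicotine replicate 2, to 0.44, without nicotine replicate 3. Counts are per gene symbol, so receptor isoforms were not separated.

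The ratio of Thrb to Thra counts within a library does not depend on how libraries are scaled. It was 0.638, 0.711 and 0.508 after nicotine and 0.489, 0.602 and 0.482 in controls. The ranges overlapped at nicotine replicate 3, and the difference of 0.23 on the log2 scale (95% interval -0.25 to 0.72) had p = 0.2 in an exact two-sided permutation test. Leaving out nicotine replicate 2 gave 0.13, and leaving out nicotine replicate 3 gave 0.37.

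Rxrg encodes the gamma retinoid X receptor, a partner that is found in few tissues and is enriched in thyrotrophs. It was at 17.1, 21.4 and 13.1 CPM after nicotine and at 14.4, 11.2 and 13.3 CPM in controls. Nicotine replicate 2 was far above the rest and nicotine replicate 3 lay within the control range. The means were 17.2 ± 4.13 CPM and 13.0 ± 1.63 CPM (SD, n = 3 each), and the log2 fold change was 0.41 (SE 0.21, 95% interval -0.06 to 0.88, edgeR adjusted p = 0.814). This value rested on single libraries, at 0.21 without nicotine replicate 2 and 0.57 without nicotine replicate 3. Relative to the summed counts of its relatives Rxra and Rxrb, Rxrg was at 0.234, 0.224 and 0.181 after nicotine and at 0.223, 0.152 and 0.165 in controls, again with overlap (exact two-sided permutation test, p = 0.2). Its log2 difference of 0.26 was 0.14 without control replicate 2 and 0.42 without control replicate 1.

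The other partners gave smaller values. Rxra, the alpha form, was at 55.1 ± 10.3 CPM after nicotine and 47.8 ± 6.93 CPM in controls (SD, n = 3 each), and the fitted log2 fold change was 0.20 (edgeR adjusted p = 0.850). It was 0.026 without nicotine replicate 2 and 0.091 without control replicate 1. Rxrb, the beta form, was at 25.2 ± 2.81 and 25.4 ± 2.16 CPM, a log2 fold change of -0.01 (edgeR adjusted p = 0.995) whose sign turned under 5 of 15 alternatives.

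Hr encodes a corepressor that binds thyroid hormone receptors and is itself a target of thyroid hormone in the brain. It was at 13.5, 15.0 and 11.7 CPM after nicotine and at 8.86, 11.0 and 15.9 CPM in controls. The control libraries spanned a wider range than the nicotine libraries and held both the lowest and the highest value. Between the groups the log2 fold change was 0.17 (SE 0.23, 95% interval -0.35 to 0.68, edgeR adjusted p = 0.899). Single controls set this value, which was -0.001 without control replicate 1 and 0.43 without control replicate 3. The ratio of Hr to Thra also overlapped between the groups, with a difference of 0.10 on the log2 scale (exact two-sided permutation test, p = 0.8).

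The deiodinases are selenium-containing enzymes that remove iodine from the hormone. Dio2 makes the active hormone inside pituitary cells, Dio3 breaks it down, and Dio1 can do either. Their start regions are printed so that the 3 enzyme genes can be read side by side. Each runs 5′ to 3′ on the strand of the gene from 250 bases before the annotated start to 50 bases into the transcript. Capitals mark each match to TATAAA, the sequence of the core promoter element known as the TATA box, at any distance from the start. The windows are chr5:127319735-127320034 on the minus strand for Dio1, chr6:115410545-115410844 on the minus strand for Dio2 and chr6:135106822-135107121 on the plus strand for Dio3, from RefSeq on GRCr8, a later build than the rn7 of the counts.
Dio1: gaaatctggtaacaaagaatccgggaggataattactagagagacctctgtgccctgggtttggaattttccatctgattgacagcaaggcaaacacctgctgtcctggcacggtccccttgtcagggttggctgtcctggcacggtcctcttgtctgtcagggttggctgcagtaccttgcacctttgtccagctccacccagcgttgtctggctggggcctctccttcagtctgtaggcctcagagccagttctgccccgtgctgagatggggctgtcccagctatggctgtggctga
Dio2: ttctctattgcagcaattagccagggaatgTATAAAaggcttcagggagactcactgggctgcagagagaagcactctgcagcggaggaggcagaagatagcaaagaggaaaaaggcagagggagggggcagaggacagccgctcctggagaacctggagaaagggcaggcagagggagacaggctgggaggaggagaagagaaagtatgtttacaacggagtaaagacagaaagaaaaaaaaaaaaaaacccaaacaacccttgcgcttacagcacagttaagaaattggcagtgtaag
Dio3: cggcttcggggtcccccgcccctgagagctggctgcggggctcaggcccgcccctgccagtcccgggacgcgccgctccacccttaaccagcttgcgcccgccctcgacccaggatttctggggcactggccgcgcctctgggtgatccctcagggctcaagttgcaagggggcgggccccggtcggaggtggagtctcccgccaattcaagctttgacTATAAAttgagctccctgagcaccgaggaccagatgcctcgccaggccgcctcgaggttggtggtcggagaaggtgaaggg
TATAAA began at -31 from the start in Dio3 and at -220 in Dio2, and was not in the Dio1 window. On the gene strand, 8.80% of 33469 windows of this length held it. CG dinucleotides, which are frequent in CpG islands, numbered 23 in the Dio3 window, 5 in that of Dio1 and 4 in that of Dio2, beside a median of 7. RefSeq windows were found for 6 of the 8 genes. Slco1c1 and Hr had none. The 7 windows of the 6 genes held neither AGGTCA, the hexamer that thyroid hormone receptors bind in repeats, nor TGACGT, the core of a cyclic AMP response element, on either strand. Among all windows 16.2% held the first and 7.94% the second. The Thrb window held 43 CG dinucleotides and that of Rxrg 21, while the 2 windows of Thra, at separate start sites, held 37 and 7. These are descriptions of the letters only.

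Dio1 was at 1.63, 2.08 and 1.57 CPM after nicotine and at 2.95, 2.14 and 2.64 CPM in controls. The nicotine libraries were all below the controls, though nicotine replicate 2 and control replicate 2 nearly met, and on library sizes alone they overlapped. The means were 1.76 ± 0.280 CPM and 2.58 ± 0.412 CPM (SD, n = 3 each). The fitted log2 fold change of -0.52 (SE 0.27, 95% interval -1.12 to 0.08) did not pass (unadjusted p = 0.0841, edgeR adjusted p = 0.814; exact two-sided permutation test p = 0.1). It stayed negative with each library left out, between -0.67 without nicotine replicate 2 and -0.42 without control replicate 1.

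Dio2 was at 72.2, 59.7 and 46.3 CPM after nicotine and at 67.4, 85.7 and 45.7 CPM in controls. Controls held both the highest and the lowest value, and all nicotine libraries lay between them. The means were 59.4 ± 13.0 CPM and 66.3 ± 20.03 CPM (SD, n = 3 each), and the fitted log2 fold change was -0.16 (SE 0.24, 95% interval -0.68 to 0.36, edgeR adjusted p = 0.906). It turned to 0.07 without control replicate 2 and reached -0.37 without control replicate 3. The spread of Dio2 within groups, 0.395 on the log2 scale, was larger than that of 91.7% of 2070 genes of like level, whose median was 0.206.

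Dio3 had 5, 31 and 4 counts after nicotine and 1, 6 and 3 in controls, or 40 against 10 in all. Most of the 40 counts came from nicotine replicate 2, the deepest library, and scaled to depth the groups overlapped at 0.106, 0.336 and 0.0661 CPM against 0.0369, 0.113 and 0.0792 CPM. Fitted without a filter, its log2 fold change was 1.18 (unadjusted p = 0.168, edgeR adjusted p = 0.834). No difference in Dio3 was detected. Within libraries the ratio of Dio1 to Dio2 differed by -0.41 on the log2 scale (exact two-sided permutation test, p = 0.4) and that of Dio3 to Dio2 by 1.08 (p = 0.4, same test), both with overlap. Single libraries moved both, the first to -0.14 without control replicate 3 and -0.75 without control replicate 2, the second to 0.42 without nicotine replicate 2 and 0.59 without control replicate 1.

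Slco1c1 encodes a transporter with high affinity for thyroxine, known from the capillaries of the brain. Its level was 3.20, 5.48 and 3.30 CPM in nicotine replicates 1, 2 and 3 and 2.104, 1.99 and 0.687 CPM in control replicates 1, 2 and 3. All nicotine libraries were above all controls, with nicotine replicate 2 far above and control replicate 3 far below the rest. The means were 4.00 ± 1.29 CPM and 1.59 ± 0.786 CPM (SD, n = 3 each), 2.54-fold apart in the fit. The log2 fold change was 1.35 (SE 0.39, 95% interval 0.48 to 2.21), the largest in size of the 7 genes. Its unadjusted p of 0.00565 from edgeR did not pass after adjustment over all genes (edgeR adjusted p = 0.760). DESeq2 gave an adjusted p of 0.133, the lowest over 15 alternatives, and the highest was 1.00. The exact two-sided permutation test gave p = 0.1, the smallest possible. With 1 library left out the log2 fold change was lowest without control replicate 3 (0.99) and without nicotine replicate 2 (1.03) and highest without control replicate 2 (1.59). Its spread within groups, 0.693 on the log2 scale, exceeded that of 91.7% of 1307 genes of like level.

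**Figure D2:**
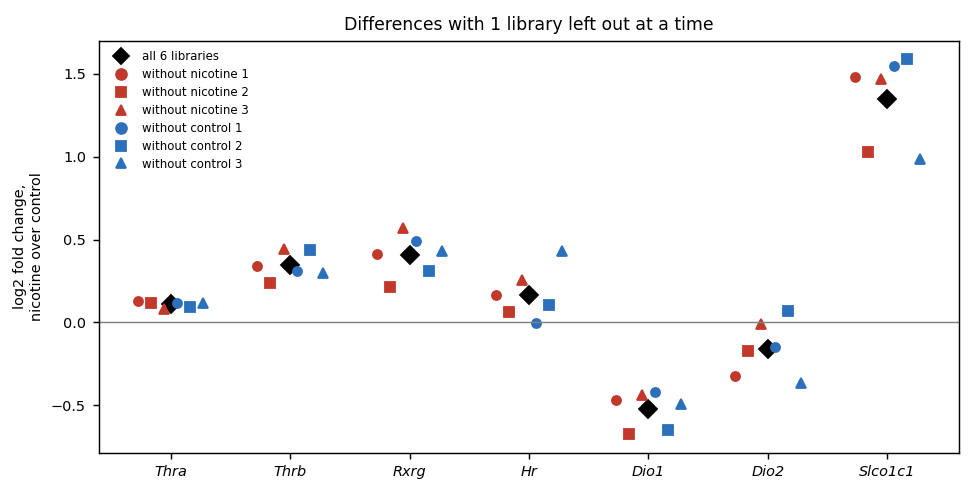
Log2 fold change of nicotine over control (y axis) for the 7 tested genes with all 6 libraries (black diamond) and with each nicotine (red) or control (blue) library left out, marker shape giving the replicate number. Slco1c1 stayed between 0.99 and 1.59 and Dio1 between -0.67 and -0.42, while Dio2 and Hr crossed 0.

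Correlations of Slco1c1 over the 6 libraries were computed only for markers of the posterior lobe and of the endothelium. No correlation was computed for the other marker lists. Some of the posterior lobe markers moved with Slco1c1. Of 7 genes that mark the pituicytes and glia of the posterior lobe, 6 were fitted above 0 after nicotine, and none was at 0 in any library. Their summed level was 78.7 to 154 CPM after nicotine and 65.4 to 102 CPM in controls. Over the 6 libraries the log2 level of Slco1c1 followed Col25a1 (Pearson r = 0.986, exact permutation p = 0.00139, adjusted p = 0.00834; Spearman rho = 1, p = 0.00278, adjusted p = 0.0167) and Nkx2-1 (r = 0.976, exact permutation p = 0.00139, adjusted p = 0.00834; rho = 1, p = 0.00278, adjusted p = 0.0167). The adjustment covered 12 marker genes. Rax (r = 0.956, exact permutation p = 0.00694, adjusted p = 0.0250; rho = 0.943, p = 0.0167, adjusted p = 0.0501) and Lhx2 (r = 0.944, exact permutation p = 0.00833, adjusted p = 0.0250; rho = 0.943, p = 0.0167, adjusted p = 0.0501) ran close to it too.

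These 4 genes encode 3 transcription factors of the ventral forebrain, from which the posterior lobe grows, and a membrane collagen. Like Slco1c1, each was highest in nicotine replicate 2 and lowest in control replicate 3. Col25a1 was at 6.30, 14.2 and 8.94 CPM after nicotine and at 5.28, 3.40 and 0.924 CPM in controls, Rax at 5.15, 11.2 and 6.31 against 5.68, 2.97 and 0.290 CPM. Without the 2 libraries farthest from the median of the marker, which were nicotine replicate 2 and control replicate 3 except for Lhx2, r was 0.873 for Col25a1, 0.876 for Nkx2-1, 0.641 for Rax and 0.683 for Lhx2, so the relation with Rax and Lhx2 rests in part on those libraries. As deviations from the group means, the values still ran together, at r = 0.969 for Col25a1 and Nkx2-1, 0.967 for Rax and 0.910 for Lhx2.

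The other markers of the list gave lower values. Scn7a had r = 0.627 (exact permutation p = 0.182, adjusted p = 0.364; rho = 0.543, p = 0.297, adjusted p = 0.446), Aqp4, a water channel of glia, r = 0.202 (exact permutation p = 0.740, adjusted p = 0.811; rho = 0.429, p = 0.419, adjusted p = 0.503), and Gfap, the glial filament gene, r = -0.0935 (exact permutation p = 0.803, adjusted p = 0.811; rho = -0.314, p = 0.564, adjusted p = 0.615). Slco1c1 relative to Col25a1 was at 0.508, 0.387 and 0.370 after nicotine and at 0.399, 0.583 and 0.743 in controls. Against this marker the groups overlapped and the controls reached the higher ratio, as they did against Rax, Lhx2 and Nkx2-1. Against Scn7a and Aqp4 the nicotine libraries stayed above the controls, and against Gfap the groups overlapped (0.719, 1.30 and 0.551 after nicotine, 0.679, 0.134 and 0.146 in controls), with the highest ratio after nicotine. The part of the posterior lobe in the level of Slco1c1 was not tested.

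All 5 endothelial markers were fitted above 0 after nicotine as well, with summed levels of 150 to 251 CPM against 124 to 163 CPM in controls. The highest r with Slco1c1 was that of Pecam1, 0.767 (exact permutation p = 0.0806, adjusted p = 0.193; rho = 0.886, p = 0.0333, adjusted p = 0.0799), and those of Cdh5, Plvap, Kdr and Emcn lay between 0.136 and 0.568 (exact permutation p from 0.243 to 0.811, adjusted p from 0.417 to 0.811), with rho between 0.0857 and 0.657 (p from 0.175 to 0.919, adjusted p from 0.350 to 0.919). As deviations from group means the endothelial r ran from -0.263 to 0.323. Their part in the result was not tested either.

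Some lists of markers for further cell types also fell on a single side of 0. No marker was called different between the groups by edgeR, which called 0% of all genes tested. Calls of the markers by DESeq2 or voom are not given here. All 4 gonadotroph markers were fitted above 0, at summed levels of 708 to 1849 CPM after nicotine and 523 to 825 CPM in controls. Lhb, a gonadotropin subunit, had a log2 fold change of 1.83 (edgeR adjusted p = 0.760). Gnrhr, the receptor of its releasing hormone, had 1.2 (edgeR adjusted p = 0.760) and Nr5a1, a transcription factor of these cells, 0.74 (edgeR adjusted p = 0.806). Lhb, Gnrhr and Nr5a1 did not overlap between groups, beside 11.3% of all genes tested, and, like Slco1c1, were highest in nicotine replicate 2. Fshb, the other marker of the list, overlapped (log2 fold change 0.38, edgeR adjusted p = 0.841). It was at 522, 890 and 437 CPM after nicotine and at 630, 410 and 383 CPM in controls. Gnrhr was at 34.2, 106 and 34.6 CPM after nicotine and at 30.1, 25.3 and 21.0 CPM in controls. It thus ranked the 6 libraries in the same order as Slco1c1, as Col25a1 and Nkx2-1 did, but its correlation was not computed. All 5 smooth muscle and pericyte markers were fitted above 0. Their sums were 37.4 to 200 CPM after nicotine and 40.7 to 53.8 CPM in controls. The lowest sum was that of nicotine replicate 2. In nicotine replicate 3, which had the highest, Tagln alone was at 138 CPM. Acta2, smooth muscle actin, stood at 2.01 without overlap (edgeR adjusted p = 0.492). Lhb, Gnrhr, Nr5a1, Fshb, Tagln and Acta2 were chosen after their values were seen. In the other direction, all 6 meningeal and fibroblast markers were fitted below 0, with sums of 194 to 619 CPM against 675 to 781 CPM. All 4 blood markers (3070 to 9687 CPM against 7962 to 16190 CPM) were too, as were all 4 neutrophil and all 4 macrophage markers. The neutrophil sums after nicotine, 19.75 to 21.9 CPM, lay within the control range of 6.24 to 128 CPM. The macrophage sums, 90.7 to 190 CPM against 145.7 to 213.5 CPM, overlapped between the groups. No marker of these 6 lists was at 0 in any library, and their part in the levels of Slco1c1 and the other 7 genes was not tested. Further lists fell on a single side too. The 4 folliculostellate and stem and the 2 somatotroph markers were fitted above 0. The 3 corticotroph and melanotroph and the 2 lactotroph markers were fitted below 0. The thyrotroph list and the neuron and oligodendrocyte list were mixed.

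**Figure D3:**
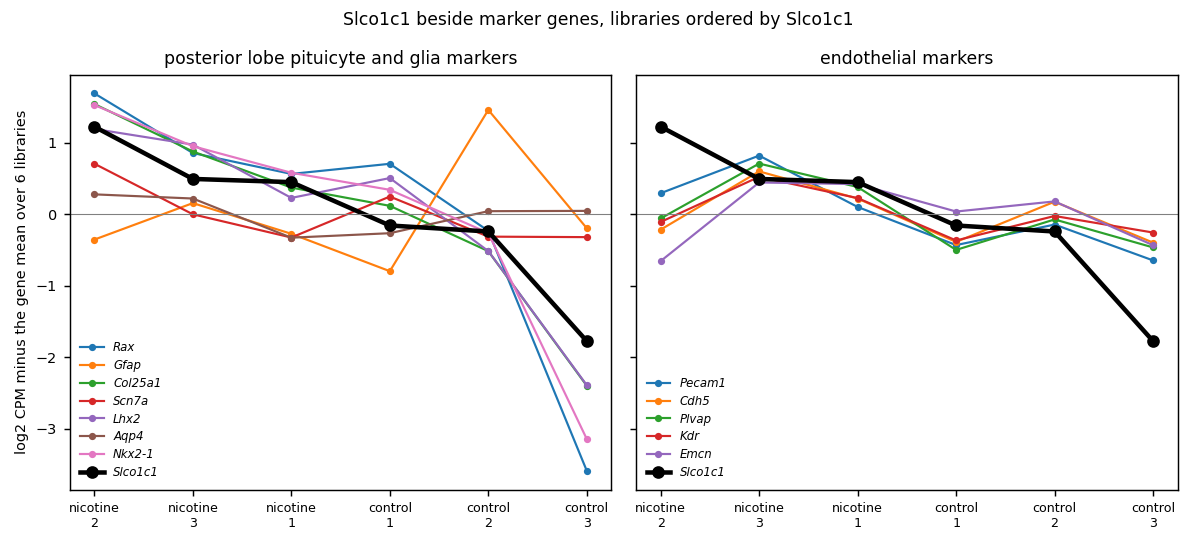
Log2 CPM minus the mean of the gene over 6 libraries (y axis) for Slco1c1 (black) and for markers of the posterior lobe (left) or endothelium (right), with libraries ordered by Slco1c1 from nicotine replicate 2 to control replicate 3. Rax, Col25a1, Lhx2 and Nkx2-1 descend with Slco1c1 to a low in control replicate 3, while the endothelial genes do not peak in nicotine replicate 2.

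Beyond these 8 genes, a list of 48 other genes of thyroid hormone transport, action and deiodinase synthesis was read from the same fit. Of these, 45 passed the filter, and 0 were called higher and 0 lower in edgeR, DESeq2 or voom. At an unadjusted p under 0.05 edgeR gave 1, beside 6.14% of all genes. DESeq2 and voom gave 2 each, beside 1154 of 24546 genes in DESeq2 and 1178 of 17292 in voom. The fitted value was above 0 for 29 and below 0 for 16, beside 8824 and 8468 of all genes tested. The median log2 fold change was 0.10, and the groups did not overlap for 6 genes, 13.3% beside 11.3% of all genes. Slc10a1, Slc17a4 and Trh failed the filter, with at most 1, 3 and 10 counts in any library.

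Coactivators, which bind receptors that carry the hormone, were all 7 fitted above 0, with a median log2 fold change of 0.17. Their values ran from 0.07 to 0.55. The gene with the unadjusted p under 0.05 was Carm1, an arginine methyltransferase that joins such complexes. It was at 30.8, 44.4 and 32.8 CPM after nicotine and at 21.5, 26.2 and 26.1 CPM in controls. All nicotine libraries exceeded all controls, nicotine replicate 2 by the most. In the fit its log2 fold change was 0.55 (SE 0.19, unadjusted p = 0.0131, edgeR adjusted p = 0.760, 0.502 to 1.00 over 15 alternatives) and 0.36 without nicotine replicate 2. Ncoa1 and Ncoa2, the coactivators of the list with the most counts, also did not overlap, with log2 fold changes of 0.35 (edgeR adjusted p = 0.808) and 0.17 (edgeR adjusted p = 0.849).

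Corepressors, which silence targets in the absence of hormone, gave 4 fitted values above 0 and 2 below. Tbl1x, a subunit of corepressor complexes, gave a log2 fold change of 0.08 (edgeR adjusted p = 0.949) and -0.22 without nicotine replicate 2.

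Among transporters 7 of the 8 tested were fitted above 0 beside Slco1c1. Those with the most counts were Slc3a2, the heavy chain of amino acid exchangers that also carry thyroid hormone, and its light chain Slc7a8, with log2 fold changes of 0.10 (edgeR adjusted p = 0.941) and 0.13 (edgeR adjusted p = 0.916), and both turned negative without control replicate 1, to -0.021 and -0.041. Crym, a binding protein that holds the hormone in the cytosol, was at 11.4, 37.1 and 18.6 CPM after nicotine and at 17.2, 14.1 and 6.89 CPM in controls. Nicotine replicate 2 stood far above the rest, and nicotine replicate 1 lay below 2 of the controls. The log2 fold change of Crym was 0.82 (SE 0.41, edgeR adjusted p = 0.813) and 0.23 without nicotine replicate 2.

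The output that the receptors control gave no call. Tshb, the hormone-specific subunit of thyroid stimulating hormone, was at 857, 479 and 2246 CPM after nicotine and at 1378, 1081 and 1213 CPM in controls. The nicotine libraries lay on both sides of the controls, which were close together. The log2 fold change was -0.04 (SE 0.45, 95% interval -1.02 to 0.95, edgeR adjusted p = 0.990). Single nicotine libraries set its sign and size, since it was -0.87 without nicotine replicate 3, 0.33 without nicotine replicate 2 and 0.15 without nicotine replicate 1. Trhr, the receptor for the releasing hormone, chosen after its values were seen, was at 29.9, 16.0 and 26.6 CPM after nicotine and at 42.04, 39.3 and 22.2 CPM in controls. Control replicate 3 lay within the nicotine range, so the groups overlapped (log2 fold change -0.52, edgeR adjusted p = 0.816). Cga, the shared alpha subunit, gave a log2 fold change of 0.49 (edgeR adjusted p = 0.825), and of 0.33 without nicotine replicate 2.

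Of targets that the hormone induces, 2 were fitted above and 2 below 0. Gh1 was at 84896 ± 31701 CPM after nicotine and 64827 ± 10621 CPM in controls (SD, n = 3 each), and the fitted log2 fold change was 0.39 with a 95% interval of -1.41 to 2.19 (edgeR adjusted p = 0.937). Without nicotine replicate 2 it was 0.091, and without nicotine replicate 1 it was 0.64. The width of the Gh1 interval depended on the method. The SE was 0.82 in this fit, 0.36 in edgeR's older fit and 0.27 in DESeq2. Me1, the malic enzyme gene, gave -0.12 (edgeR adjusted p = 0.889), and -0.064 without control replicate 1. The ratio of Tshb to Gh1 counts overlapped, with a difference of -0.65 on the log2 scale (exact two-sided permutation test, p = 0.7) that turned to 0.12 without nicotine replicate 2.

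The genes that build selenium-containing proteins gave 3 fitted values above 0 and 3 below. Sephs2, which makes the selenium donor, had a log2 fold change of -0.23 (edgeR adjusted p = 0.844), and of -0.099 without nicotine replicate 2 and -0.46 without nicotine replicate 1. Trnau1ap, which binds the selenocysteine tRNA, was the only gene of the 48 with every nicotine library below every control, at -0.31 (edgeR adjusted p = 0.820), and at -0.16 without nicotine replicate 2. Of 6 genes that add ubiquitin to the type 2 deiodinase or remove it, 3 lay on each side of 0. Marchf6, a ubiquitin ligase, was at -0.13 (edgeR adjusted p = 0.911), but at -0.38 without nicotine replicate 2 and -0.021 without nicotine replicate 3. Usp20, a deubiquitinase, was at 0.20 (edgeR adjusted p = 0.865) and turned to -0.060 without nicotine replicate 2.

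**Figure D4:**
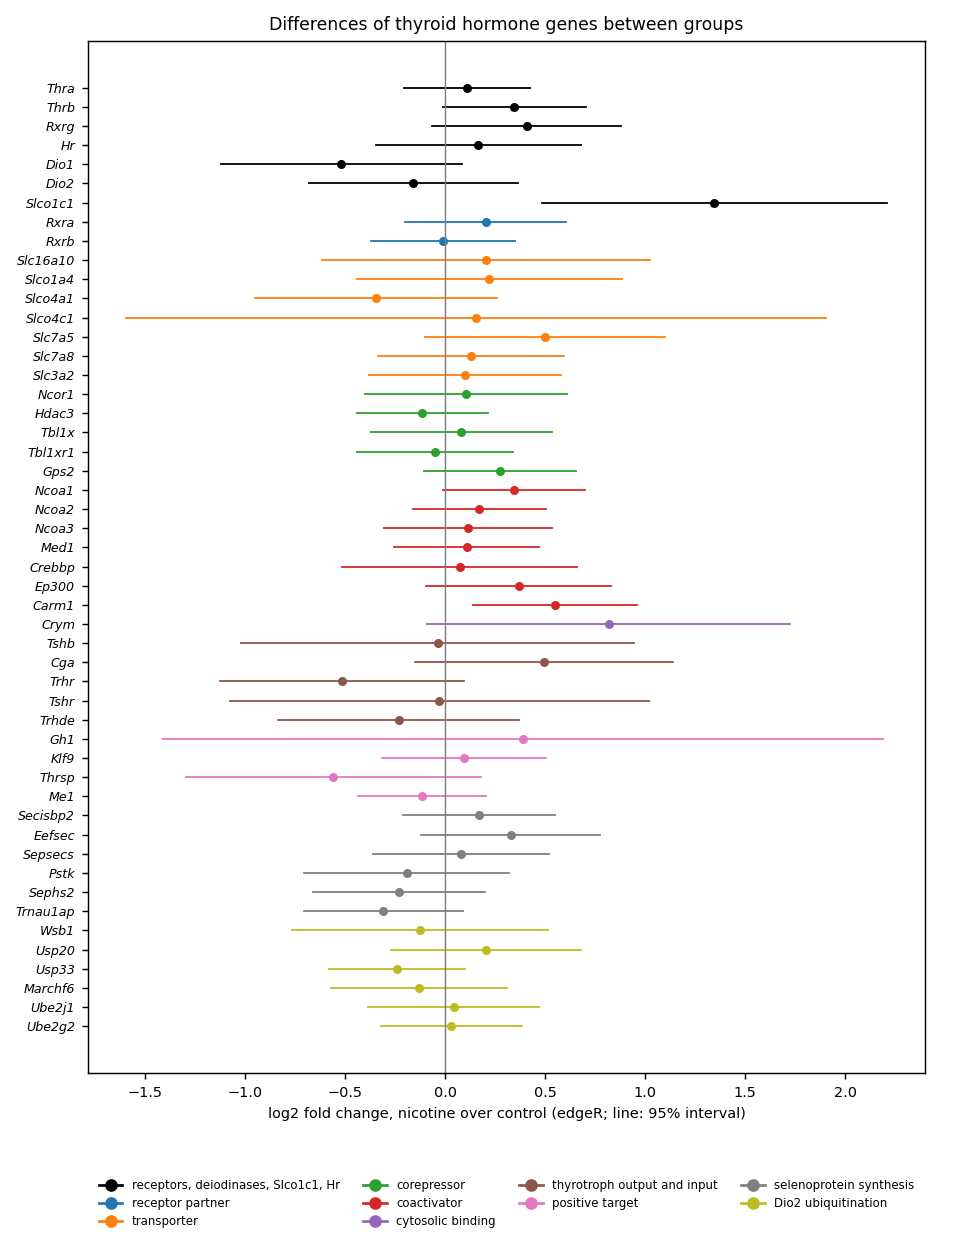
Log2 fold change of nicotine over control (x axis) from edgeR with its 95% interval (line) for the 7 tested receptor, deiodinase, transporter and Hr genes (black) and other genes of the list coloured by role. The intervals of Slco1c1 and Carm1 lie above 0, and those of the other genes shown span it.

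The genes whose levels ran closest to each gene over the 6 libraries were found by the root mean square (rms) difference of centred log2 CPM. Thra was nearest to Ddx19b, Mllt10 and Mrpl58 (rms 0.0171 to 0.0234, beside 0.0646 for Thra about its own mean). Thrb was nearest to Ipo13, Pcsk6 and Nrbp1 (0.0298 to 0.0489, beside 0.224), and Rxrg to Fbxl2, Mak and Hunk (0.0686 to 0.0782, beside 0.299). The pattern of Hr was closest to those of Espn, Mfsd4b and Cbln4 (0.0363 to 0.0774, beside 0.287), that of Dio1 to Hdc, LOC681300 and Birc5 (0.05 to 0.113, beside 0.326), and that of Dio2 to Mettl11b, LOC102554932 and Phf13 (0.0757 to 0.0969, beside 0.330). Slco1c1 was nearest to Lmod1, St6galnac5 and Lgi1, at a larger distance (0.238 to 0.292, beside 0.907). These were picked from 17292 genes over only 6 libraries and carry no test.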

How the data were processed

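RNA of 6 rat pituitary glands, 3 per group by the GEO labels, was sequenced by the authors as paired-end stranded libraries, mapped to rn7 with HISAT2 2.1.0 and assigned to gene symbols with featureCounts, per the paper and the submitters' processing notes. The deposited values are whole-number counts without normalization by the authors. Handling of multi-mapped reads, and whether reads or pairs were counted, is not given in the sources used here. Testis, methylation and protein data were not analysed here.

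Counts were analysed in R 4.3.3 with edgeR 4.0.16 (filterByExpr, TMM, quasi-likelihood test, no covariate), with Benjamini-Hochberg adjustment over 17292 genes. Calls needed a fold change above 1.5 and an adjusted p below 0.1. DESeq2 1.42.0 and limma 3.58.1 (voom) were alternatives. Correlations and nearest genes used log2 CPM with a prior count of 2. The typical variation between rats (biological coefficient of variation) was 23.6%. The procedure was tested on simulated counts. Exon lengths were not used, so CPM rank genes by counts and not by transcripts.

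The 8 genes, the other lists and the tests were chosen with earlier results of these data known. Named were the 8 genes, genes of the pathway list with an unadjusted p under 0.05 and the 2 with the highest mean CPM of each role, the 3 nearest genes of each tested gene, and markers that moved with one. Some genes of the pathway list that the rule would name are not reported here. The markers of the posterior lobe and endothelial lists are given in full, and pathway genes that failed the filter are also named. Other genes outside this rule are named as chosen after their values were seen.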

Additional observations from a re-analysis of the deposited data

How the results depend on the processing

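The 8 genes and the 48 other genes of the pathway gave 0 calls under each of the 15 alternatives, namely RLE factors or library sizes alone in place of TMM, no filter or a minimum of 10 counts in every library, DESeq2, voom with sample quality weights, edgeR's older fit (chosen after seeing the data), counts thinned to the smallest total, the replicate block, and 6 fits without 1 library. Over all genes, 61 were called by DESeq2 (18 higher, 43 lower), 2 without a filter, 1 each with library sizes alone, voom or thinning, and 0 to 9 with 1 library left out (9 without nicotine replicate 3). The replicate block called 2. Whether the numbers pair the rats is not known. Same-numbered libraries correlated at 0.0264, -0.198 and -0.0785 and 1 of 6 libraries correlated best with its own number, but 3 libraries per group cannot decide this. Total counts ran in the same order in both groups, highest in replicate 2 and lowest in replicate 1. Of 375 comparisons of 25 named genes, 358 kept their direction and 17 turned. Rxrb turned with library sizes alone (0.0421) and without a filter (0.00325), and voom turned Tbl1x (-0.14) and Tshb (0.10). With 1 library left out the log2 fold changes spanned -0.11 to 0.0643 for Rxrb, -0.22 to 0.21 for Tbl1x, -0.87 to 0.33 for Tshb, -0.10 to 0.33 for Slc3a2, -0.0408 to 0.36 for Slc7a8, -0.0600 to 0.37 for Usp20, -0.00143 to 0.43 for Hr and -0.37 to 0.0715 for Dio2. The log2 ratio difference spanned -0.107 to 0.320 for Hr to Thra and -1.21 to 0.119 for Tshb to Gh1. The cause was not tested. Dio3 had 1 to 31 counts per library.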
